A study of Mus musculus with 12 samples.

Results

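The genes described here are those of erythropoietin receptor and STAT5 signalling: Epor, Tfr2, Lyn, Stat5a, Stat5b, Cish, Socs2 and Pim1. Their data are 68 ATAC-seq peaks of 75281 in the deposited table, taken as every peak whose centre lay inside one of the 8 genes or within 10000 bp of its ends (RefSeq positions, GRCm38), each peak going to the nearest of the 8. Stat5b held 18 of them, Lyn 13, Stat5a 10, Cish 8, Epor 6, Pim1 6, Socs2 5 and Tfr2 2. All 68 passed the filter on low counts, CPM (counts scaled to the library size) above 1 in at least 2 libraries.

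ATAC-seq counts the fragments that a transposase releases from open chromatin, so a peak's count measures how accessible that stretch of DNA is. The 12 libraries came from bone marrow of NZO/HILtJ mice, an inbred strain that becomes obese and diabetic, with 3 females and 3 males at 3 months of age and 3 females and 3 males at 18 months, called young and old below. The labels give no other allele and no treatment. Bone marrow is a mixture of red cell precursors, myeloid cells, lymphocytes, megakaryocytes and stem cells, and the labels' protocols also describe a sort of CD8 T cells that the sample labels do not name.

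Erythropoietin is the hormone that keeps red cell precursors alive and dividing. It binds the erythropoietin receptor, whose attached kinase JAK2 phosphorylates the receptor tail. STAT5A and STAT5B dock there, are phosphorylated, and move to the nucleus, where they switch on survival genes and also the genes of their own inhibitors. TFR2 is an iron-sensing partner of the receptor in red cell precursors, and LYN is a SRC family kinase found in many blood cells that can act on the receptor and on STAT5. CISH and SOCS2 are feedback inhibitors of cytokine receptors, and PIM1 is a survival kinase; the genes of all 3 are known STAT5 targets.

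The promoter windows shown first are those that bear on the age comparison: the starts of Epor, Tfr2 and Stat5b, 3 of the 4 genes whose start peak was lower at 18 months, and that of Cish, whose start peak did not pass the test. The fourth, Stat5a, is not shown: its start peak was lower too, a call lost under every other scaling or tool run, and its window held neither core below. Each is the RefSeq window of GRCm38.p6 from 250 bases before to 50 after a gene start, read 5′ to 3′ on the gene's strand, and each lies inside or overlaps a peak of the table. In the Epor and Tfr2 windows, capitals mark GATAA, the core bound by GATA factors such as GATA1, on either strand (TTATC is the same core on the other strand). In the Cish window, capitals mark TTCNNNGAA, the core bound by STAT dimers. Stat5b has no capitals because neither core was found in its window. The Cish window also holds a GATAA, left in lower case.
Epor, chr9:21963527-21963826, minus strand: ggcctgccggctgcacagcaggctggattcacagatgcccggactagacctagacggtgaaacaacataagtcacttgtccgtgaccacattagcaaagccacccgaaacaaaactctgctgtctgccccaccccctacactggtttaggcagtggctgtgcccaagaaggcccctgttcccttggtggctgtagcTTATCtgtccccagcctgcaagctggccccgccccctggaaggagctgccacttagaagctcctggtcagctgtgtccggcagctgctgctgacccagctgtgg
Tfr2, chr5:137570725-137571024, plus strand: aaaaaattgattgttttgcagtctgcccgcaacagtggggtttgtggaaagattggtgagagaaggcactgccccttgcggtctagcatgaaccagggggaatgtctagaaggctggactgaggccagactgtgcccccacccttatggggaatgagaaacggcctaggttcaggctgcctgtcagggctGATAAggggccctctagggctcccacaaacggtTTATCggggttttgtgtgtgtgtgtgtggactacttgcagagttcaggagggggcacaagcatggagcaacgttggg
Stat5b, chr11:100850532-100850831, minus strand: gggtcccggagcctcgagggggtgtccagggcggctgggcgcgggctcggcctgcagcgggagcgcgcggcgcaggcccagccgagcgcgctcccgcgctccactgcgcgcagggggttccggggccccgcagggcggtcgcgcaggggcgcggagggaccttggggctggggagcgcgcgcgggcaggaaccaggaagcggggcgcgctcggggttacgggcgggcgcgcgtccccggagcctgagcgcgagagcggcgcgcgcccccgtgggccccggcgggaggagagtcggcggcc
Cish, chr9:107296409-107296708, plus strand: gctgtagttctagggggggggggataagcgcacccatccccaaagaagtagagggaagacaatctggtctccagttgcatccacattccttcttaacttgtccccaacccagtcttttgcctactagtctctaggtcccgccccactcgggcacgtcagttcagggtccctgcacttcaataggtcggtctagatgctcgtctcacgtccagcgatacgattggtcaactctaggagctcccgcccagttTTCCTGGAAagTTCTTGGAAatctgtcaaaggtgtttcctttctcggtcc

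The Epor window held 1 GATAA core, 54 bases before the gene start on the other strand, and 2 matches to CACCC, the core bound by KLF factors. The Tfr2 window held 2 GATAA cores, 60 and 27 bases before the start. At least 1 GATAA core on either strand occurred in 25.4% of all 32817 promoter windows in the table and at least 2 in 5.27%, and CACCC in 57.5%. The Cish window held 1 GATAA core and 1 CACCC too, and the other 2 listed Tfr2 windows held no GATAA, so this core did not separate the lower genes from Cish. It also held 2 TTCNNNGAA cores, TTCCTGGAA at the gene start and TTCTTGGAA 11 bases further on, against 8.29% of all windows with 1 or more and 0.457% with 2 or more. The Stat5b window was 82.7% G and C. Of the 11 windows that the table holds for 6 of the genes, TTCNNNGAA was found only in that of Cish. These are matches of letters, not measured binding.

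Totals over all peaks ran from 7668099 to 12756647 counts a library, and at 18 months every female library (10706402 to 12756647) was deeper than every male library (7668099 to 10365528). Of these counts, the 68 peaks took 7909 to 12368 counts (0.0949% to 0.104%), and the smallest count at any of them was 11. The libraries were sequenced in 6 runs and no run held both ages, so age and run cannot be told apart. At 18 months all females were in 1 run and all males in another, so sex and run cannot be told apart there. Among marker genes, all 20 of 20 erythroid genes were lower at 18 months (median log2 fold change -0.83), and their summed level was 1450 to 1596 CPM at 18 months against 2319 to 2817 CPM at 3 months, with no overlap. Of 14 neutrophil and myeloid markers with a peak, 9 were higher and none was lower, with sums of 1157 to 1363 CPM at 18 months and 913 to 1421 CPM at 3 months. Of 6 monocyte markers 3 were higher and 1 lower, of 10 B cell markers and of 6 T cell markers with a peak 1 was higher and 1 lower each. By the main edgeR fit none of 5 NK cell markers (1 at an unadjusted p below 0.05) and none of 5 stem and progenitor markers (2 unadjusted) passed. Under scaling by total counts, and under DESeq2, 1 NK cell marker and 2 stem and progenitor markers were higher. With offsets that follow peak width, 1 stem and progenitor marker was higher. Of 5 megakaryocyte markers 2 were lower, and their sums of 139 to 152 CPM at 18 months and 172 to 192 CPM at 3 months did not overlap. Of all 10 T cell markers, 4 (Cd3e, Cd8a, Cd8b1 and Bcl11b) had no peak assigned to them. In a mixed tissue, fewer cells of a type and less open chromatin in each cell cannot be told apart, and the part that these shifts play in the results below was not tested.

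Across the 68 peaks, 14 passed the test for age (the quasi-likelihood test of edgeR in a model of age and sex, Benjamini-Hochberg adjusted p below 0.05 over all 75164 tested peaks): 9 were lower and 5 higher at 18 months. That is 20.6% of the 68, near the 21.0% of all tested peaks that passed (11.6% of all peaks lower and 9.43% higher). The balance depended on the scaling. With total counts 7 of the 68 were lower and 12 higher, beside 6629 and 11196 of all tested peaks. For 8 of the 68 the ranges of the 2 ages did not overlap (4 lower, 4 higher), beside 7.24% of all peaks. The set as a whole was thus not set apart by how many of its peaks moved. By gene, all 4 called peaks of Epor and Tfr2 and all 3 of Stat5a were lower, both called peaks of Cish and both of Lyn were higher, Stat5b had 2 lower and 1 higher, and Pim1 and Socs2 had none. Of all 2477 genes with at least 2 called peaks, 79.4% had them all in 1 direction, and the difference in direction between the genes was not tested.

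**Figure D1:**
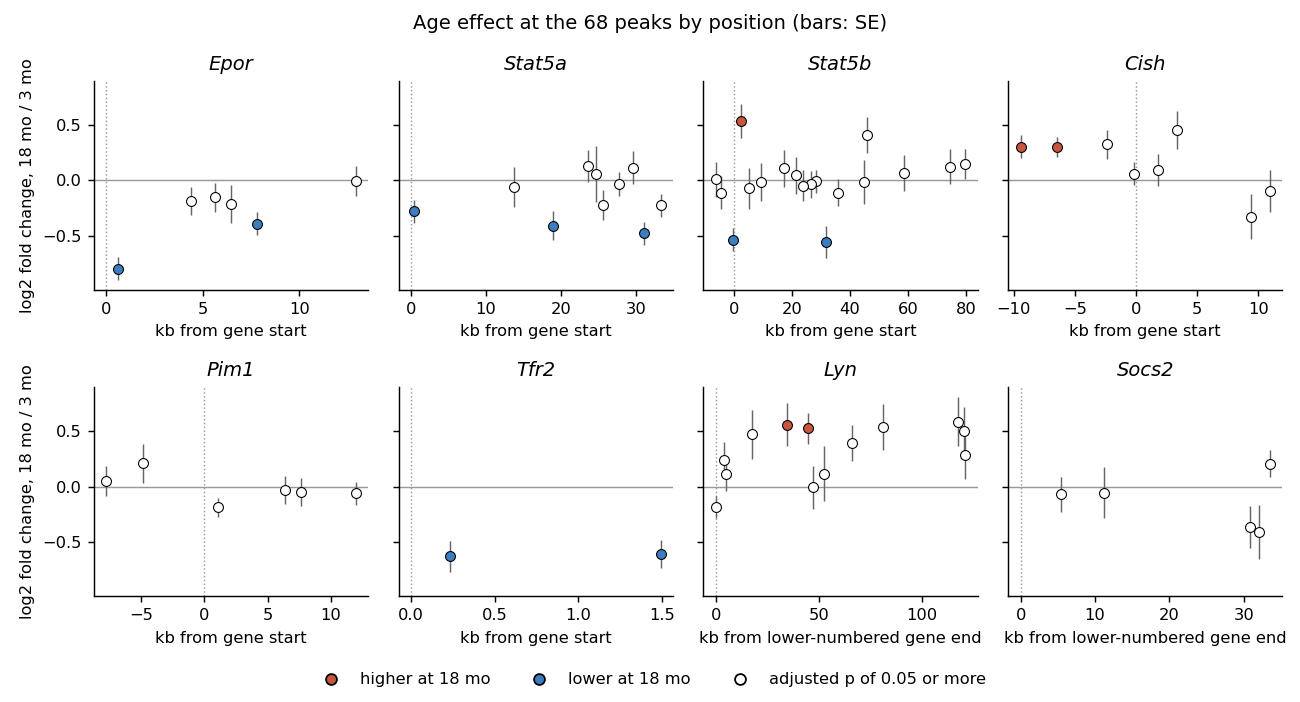
Log2 fold change between 18 and 3 months (y axis, bars show the standard error) for each of the 68 peaks against the distance of its centre from the gene start in kb (from the lower-numbered gene end for Lyn and Socs2). Filled points passed the test, red higher and blue lower at 18 months. The Epor, Tfr2 and Stat5b points nearest the start lie at -0.80, -0.63 and -0.54, while most points away from a start are open.

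Summed over its peaks, each gene gave 1 level per library. By that measure Epor, Tfr2 and Stat5a were lower at 18 months and Cish was higher, so 4 of the 8 genes passed the same test over 15314 genes. Of all genes, 35.6% passed, 25.0% lower and 10.6% higher. The ranges of the 2 ages were apart for Epor, Tfr2 and Stat5a, and for 13.9% of all genes. The median log2 fold change of the 8 genes was -0.11, beside -0.06 over all genes.

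**Figure D2:**
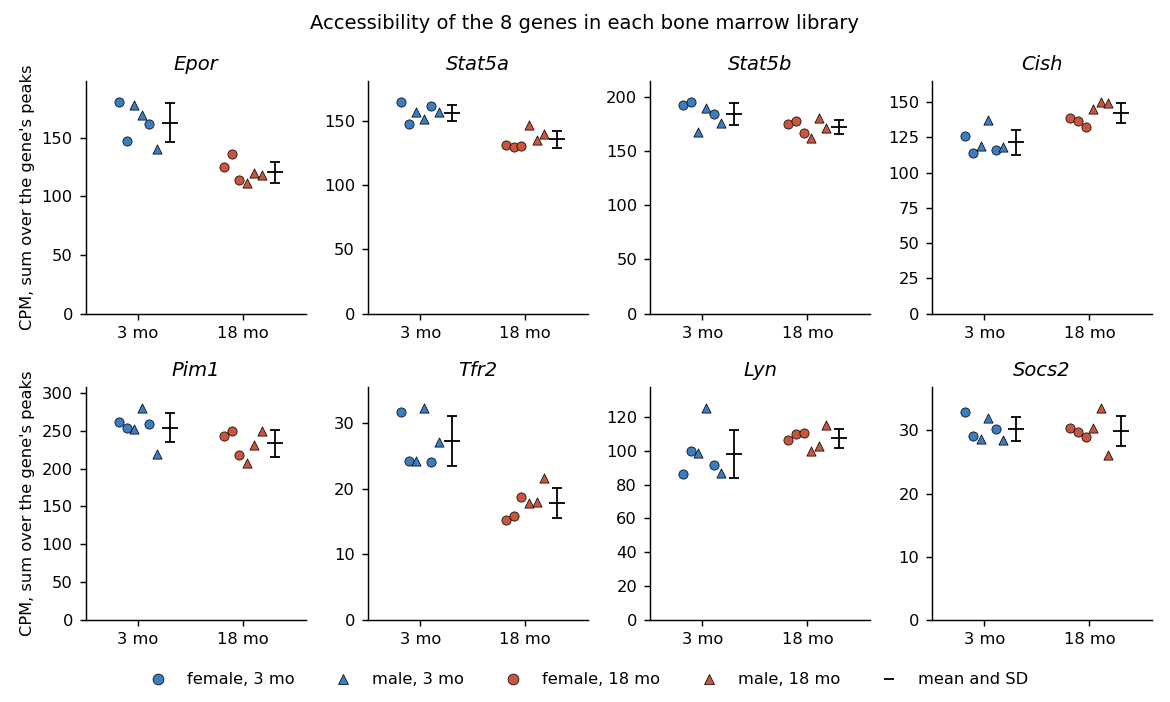
CPM summed over the peaks of each gene (y axis, from 0) in every library at 3 and 18 months, circles for females and triangles for males, with the mean and SD of the 6 libraries of each age. Epor, Stat5a and Tfr2 show no overlap between the ages, and in the Lyn panel 1 male library of 3 months stands at 125 CPM above the other 5.

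Epor, the receptor itself, was 121 ± 8.91 CPM in the old mice and 163 ± 16.3 CPM in the young (SD, n = 6 each). The 6 libraries of 18 months ranged from 111 to 136 CPM with a median of 119, and those of 3 months from 141 to 180 CPM with a median of 166. Every old library was below every young one. Between the ages the log2 fold change was -0.43 (standard error 0.066, adjusted p 3.8e-05 by edgeR), a level 0.740 times that of 3 months. It was lower in females (-0.38) and in males (-0.48), passing in each sex.

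The change was largest at the peak that holds the Epor start, at chr9:21961191-21964721, which spans 3531 bp over the 5′ part of the gene and contains the promoter window printed above. Its level was 27.5, 28.3 and 32.9 CPM (lowest, median and highest) at 18 months and 40.4, 51.9 and 60.6 CPM at 3 months. All old libraries were below all young ones, also within each sex. The log2 fold change was -0.80 (SE 0.103, adjusted p 5.26e-08 by edgeR), among the lowest 1.16% of all tested peaks, with -0.81 in females and -0.79 in males.

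The most accessible peak assigned to Epor, at chr9:21954904-21956673, lay past the 3′ end of the gene and inside the neighbouring gene Swsap1. It stood at 40.9, 52.2 and 71.8 CPM at 18 months and 58.5, 71.4 and 86.1 CPM at 3 months, so the ages overlapped. Its log2 fold change of -0.39 (adjusted p 0.00496) passed in this fit and missed the threshold when library offsets followed peak abundance (-0.18). The other 4 Epor peaks had log2 fold changes from -0.22 to -0.01 and did not pass. Of the 6 peaks, 4 lay nearer to another gene than to Epor. With the other 2 alone, the log2 fold change of Epor was -0.65 and passed.

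Tfr2, the iron-sensing partner of the receptor, was 17.9 ± 2.28 CPM in the old mice and 27.2 ± 3.82 CPM in the young (SD, n = 6 each). The old libraries lay between 15.1 and 21.6 CPM with a median of 17.9, and the young ones between 24.1 and 32.2 CPM with a median of 25.7. The groups were apart, at a log2 fold change of -0.62 (SE 0.101, adjusted p 7.56e-05 by edgeR). Only 1.46% of all genes had a fold change as low or lower.

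Both Tfr2 peaks passed. The peak at chr5:137570812-137571819, which overlaps the window with 2 GATAA cores, stood at 8.503, 10.2 and 12.4 CPM at 18 months and 13.6, 15.1 and 19.1 CPM at 3 months, with no overlap and a log2 fold change of -0.61. The peak at chr5:137569695-137570418, over the most upstream of the 3 listed starts, stood at 6.22, 6.89 and 9.28 CPM against 8.69, 11.5 and 14.3 CPM, overlapping between ages but not within either sex, with a log2 fold change of -0.63. The receptor and its partner thus both had lower start peaks in the old mice.

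Jak2, the kinase bound to the receptor and named here for that role, belongs to the list of the receptor complex and its direct signalling proteins. Its level was 119 ± 4.85 CPM in the old mice and 142 ± 8.89 CPM in the young (SD, n = 6 each), with no overlap and a log2 fold change of -0.25 (adjusted p 0.000834 by edgeR). With abundance offsets the change was -0.12 and did not pass.

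Lyn, the SRC family kinase, did not pass as a gene. It was 108 ± 5.62 CPM at 18 months, from 100.2 to 116 CPM with a median of 108, and 98.1 ± 14.5 CPM at 3 months, from 86.3 to 125 CPM with a median of 95.4 (SD, n = 6 each). That is a log2 fold change of 0.14 (SE 0.076, adjusted p 0.174 by edgeR). At 3 months 5 libraries lay below 100.2 CPM, and the sixth, the male of sequencing run 30, at 125 CPM was above all 11 others. Without that library the change was 0.21 and passed. It also passed with all 12 libraries under total counts (0.21), DESeq2 (0.21), width offsets (0.26) and abundance offsets (0.27), so the call depends on the scaling.

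The 13 Lyn peaks were nearly all above 0, 11 of 13, but 2 passed. The peak at chr4:3712192-3712728, inside the gene, stood at 3.63, 4.98 and 6.93 CPM at 18 months and 2.18, 3.38 and 5.11 CPM at 3 months, with a log2 fold change of 0.56 (adjusted p 0.0333). It passed in 5 of the 12 fits that left out 1 library, and not with abundance or width offsets (0.48 under each). The other called peak, at chr4:3722493-3723277, also inside the gene and named after its values were seen, stood at 8.34, 10.7 and 13.9 CPM against 6.25, 7.65 and 8.14 CPM. There the ages did not overlap, and the log2 fold change was 0.53 (adjusted p 0.00404).

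The most accessible Lyn peak, at chr4:3677312-3679320 over the lower-numbered end of the gene, went the other way: 32.96, 37.5 and 45.1 CPM at 18 months and 36.1, 42.4 and 54.7 CPM at 3 months, a log2 fold change of -0.18 that did not pass (adjusted p 0.201). The gene's level therefore sums a peak over its lower-numbered end with a negative estimate and many smaller peaks with positive ones.

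Stat5a and Stat5b lie side by side on chromosome 11 and encode the closely related factors that the receptor activates. Stat5a was 135 ± 6.62 CPM in the old mice and 156 ± 6.28 CPM in the young (SD, n = 6 each), with ranges of 130 to 146 CPM (median 133) and 147 to 164 CPM (median 157). The ranges were apart by a narrow margin. Of the 10 peaks summed here, 5 lay nearest to the neighbouring gene Stat3, 4 of them with their centre inside it. The level of Stat5a thus sums peaks of both genes. The change on the log2 scale was -0.21 (SE 0.050, adjusted p 0.00277 by edgeR), but -0.08 and -0.07 with offsets that follow peak abundance or peak width, where it did not pass.

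Of 10 Stat5a peaks, 3 were lower. Its highest peak, which holds a gene start at chr11:100859887-100861859, stood at 26.3, 31.1 and 39.7 CPM at 18 months and 32.3, 39.1 and 44.3 CPM at 3 months. Its log2 fold change of -0.28 had an adjusted p of 0.0470, did not pass in any of 4 other scalings or tools, and passed in 3 of the 12 fits without 1 library. The largest decrease, -0.48 (adjusted p 0.000846), was at chr11:100890567-100892568, which lies inside Stat3, the next gene; it stood at 15.3, 17.6 and 22.5 CPM against 23.2, 26.3 and 26.6 CPM, with no overlap. The remaining one, named after its values were seen, was at chr11:100878908-100879988 inside Stat5a, where 9.08 ± 1.03 CPM at 18 months met 12.0 ± 1.40 CPM at 3 months (SD, n = 6 each) with no overlap; its change was -0.41, and -0.34 without passing when libraries were scaled by total counts.

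Stat5b did not pass as a gene: 172 ± 6.84 CPM in the old mice and 184 ± 10.5 CPM in the young (SD, n = 6 each), with ranges of 162 to 180 CPM (median 173) and 168 to 195 CPM (median 187). Its log2 fold change was -0.10 (adjusted p 0.127 by edgeR), and the estimate was above 0 with abundance offsets (0.04) and width offsets (0.05).

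Within Stat5b, single peaks did move. The peak over its first start, at chr11:100849917-100851614, which contains the G- and C-rich window above, stood at 23.3, 28.5 and 38.2 CPM at 18 months and 32.9, 41.7 and 51.8 CPM at 3 months. The ages overlapped across the sexes but not within either sex, and the log2 fold change was -0.54 (SE 0.102, adjusted p 0.000104 by edgeR). A second listed start, further into the gene, has a peak of its own, at chr11:100821321-100823015. That peak stood at 20.3, 23.1 and 24.6 CPM at 18 months and 19.6, 21.8 and 29.3 CPM at 3 months. There the log2 fold change was -0.01, and its sign turned under 3 of the scalings.

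The other called Stat5b peaks were small and lay inside the gene. At chr11:100818467-100819243 the level was 5.67, 6.59 and 9.60 CPM at 18 months against 8.58, 10.1 and 13.1 CPM, a log2 fold change of -0.56. At chr11:100847696-100848275, just inside the gene from the first start peak, it was 6.71, 7.67 and 9.31 CPM against 4.15, 5.50 and 6.57 CPM, a log2 fold change of 0.54 with no overlap. This rise thus stood beside the fall at the first start peak in the same gene, while the small peak that fell lay further into the gene.

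Cish, the first of the feedback inhibitors, was the one gene of the 8 that passed as higher in this fit. It was 142 ± 7.14 CPM at 18 months, from 133 to 150 CPM with a median of 142, and 122 ± 8.87 CPM at 3 months, from 114 to 138 CPM with a median of 118 (SD, n = 6 each). The ranges overlapped through 1 library of 3 months, the male of run 30, but were apart within each sex. The log2 fold change was 0.22 (SE 0.053, adjusted p 0.00259 by edgeR), or 1.17 times the level of 3 months.

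The peaks that passed did not include the one at the Cish promoter. The peak over the Cish start, at chr9:107295611-107297324, with the paired TTCNNNGAA cores shown above, stood at 21.9, 26.2 and 28.3 CPM at 18 months and 20.1, 24.7 and 28.1 CPM at 3 months, a log2 fold change of 0.06 (adjusted p 0.731). Those that passed lay upstream of the gene. The highest, at chr9:107288355-107292086 and nearest to the gene Mapkapk3, stood at 57.6, 58.6 and 69.4 CPM against 42.7, 47.9 and 59.0 CPM, a log2 fold change of 0.31 (adjusted p 0.0125). The second, at chr9:107286421-107288035 inside Mapkapk3 and named after its values were seen, had the same log2 fold change of 0.31 (adjusted p 0.0274), with 21.95 to 28.02 CPM at 18 months and 17.3 to 21.5 CPM at 3 months. It passed in 9 of the 12 fits without 1 library, with a highest adjusted p of 0.0799. With only the peaks nearer to Cish than to any other gene, the gene's change was 0.11 and did not pass.

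Socs2, the second feedback inhibitor, was 29.8 ± 2.39 CPM in the old mice and 30.2 ± 1.89 CPM in the young (SD, n = 6 each), with overlapping ranges of 26.1 to 33.5 CPM and 28.5 to 32.99 CPM. The log2 fold change was -0.02 (SE 0.077, adjusted p 0.882 by edgeR), and its sign turned under 4 of 4 other scalings or tools. Its highest peak, at chr10:95416738-95418074, stood at 10.4, 14.5 and 17.1 CPM against 9.82, 12.7 and 13.8 CPM, a log2 fold change of 0.21 (adjusted p 0.238). None of its 5 peaks passed.

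Pim1, the survival kinase, had the most accessible peak of the set, 6625 bp wide at chr17:29488543-29495167 over nearly the whole gene. It stood at 132, 143 and 166 CPM at 18 months and 131, 170 and 193 CPM at 3 months, a log2 fold change of -0.19 (adjusted p 0.124) with a full overlap of the ages. As a gene Pim1 was 233 ± 17.7 CPM in the old mice and 255 ± 19.8 CPM in the young (SD, n = 6 each). The log2 fold change was -0.12 (adjusted p 0.102 by edgeR), and it was 0.01 and 0.02 with abundance and width offsets. None of its 6 peaks passed.

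Peaks that hold a gene start differed from the rest of the table: 29.3% of 10109 such peaks were lower and 4.08% higher, with a median log2 fold change of -0.16, beside 0.02 over all tested peaks. Wide peaks did so too, with a median of -0.21 over the 2600 peaks of at least 3000 bp. The Epor start peak belongs to both classes. A measure within each gene was therefore added, after the levels had been seen. It is the share of the counts assigned to a gene that lay in its highest start peak. A single scaling factor per library cannot change this share, but offsets that differ between peaks, such as those by abundance or width, can. The share restates the levels above in another form and is given as a description, with no test. The start peaks held 178 to 2085 counts a library, and Tfr2 was left out because both of its peaks hold a listed start.

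For Epor that share was 24.5% ± 1.77 in the old mice and 31.4% ± 2.65 in the young (SD, n = 6 each). The old libraries ranged from 22.5% to 27.35% (median 24.1%) and the young ones from 27.43% to 33.96% (median 32.1%), just apart. For Stat5b it was 16.8% ± 2.84 against 22.6% ± 2.63 (SD, n = 6 each), with overlapping ranges of 13.4% to 21.4% and 18.7% to 26.5%, its second start peak counting among the others. A lower share was common: of 6643 genes with a start peak and another peak, 77.3% had a lower share at 18 months, with a median difference of -2.20 percentage points. The differences of Epor (-6.90) and Stat5b (-5.82) were reached or passed by 9.53% and 15.3% of those genes.

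In Epor the other peaks were mostly those of its neighbours, since 4 of the 5 lie nearest to Swsap1 or Plppr2. With the peaks nearest to Epor alone, its start peak and 1 other, the share was 72.0% ± 4.29 against 79.5% ± 1.69 (SD, n = 6 each), with overlapping ranges. The share was 18.0% against 20.1% in Cish, 63.1% against 65.6% in Pim1 and 23.8% against 24.8% in Stat5a, all with overlapping ranges. The differences were -2.10, -2.43 and -1.06 percentage points.

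**Figure D3:**
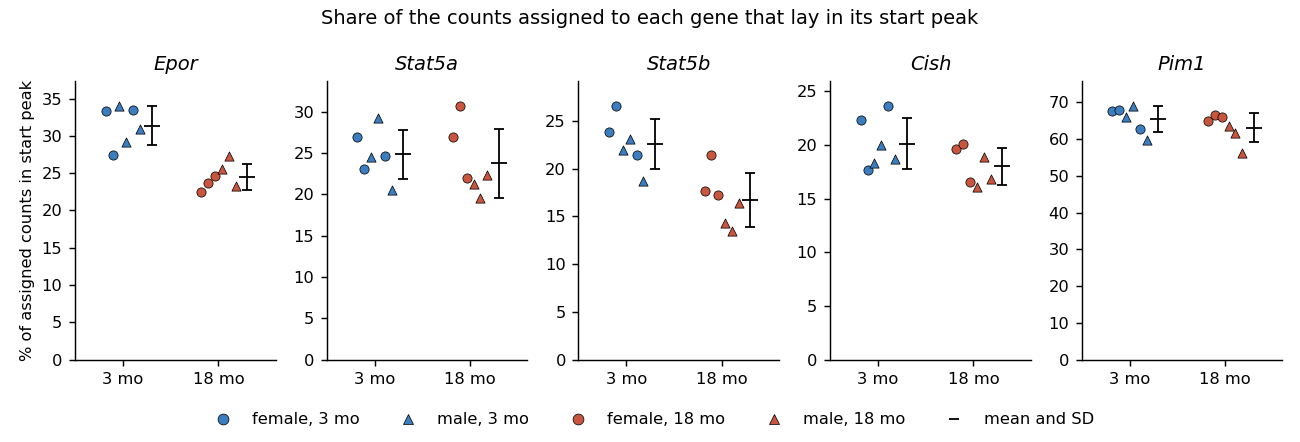
Percent of the counts assigned to each gene that lay in its highest start peak (y axis, from 0) in each library at 3 and 18 months, with the mean and SD of 6 libraries. The Epor share is 24.5% at 18 months and 31.4% at 3 months with no overlap, the Stat5b share 16.8% and 22.6%, and the other 3 genes overlap widely.

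The age effect had the same sign in females and males in 39 of the 68 peaks (57.4%), beside 66.2% of all tested peaks. All 14 called peaks had the same sign, as did 99.7% of all called peaks; peaks called from both sexes together are nearly bound to do so. Tested within each sex, 8 of the 68 peaks passed in females, where 11.9% of all peaks did, and 6 in males, where 11.4% did, and 4 passed in both, as did 4.26% of all peaks. Among the 8 genes, 3 passed in females (Epor, Stat5a and Tfr2), where 21.9% of all genes did, and 3 in males (Epor, Tfr2 and Cish), where 28.3% did. The calls of Cish and Lyn in females change with the fit: in a fit of the females alone Cish (0.20, adjusted p 0.0305 by edgeR) and Lyn (0.24, adjusted p 0.0171) passed too.

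The difference between the sexes was itself tested by edgeR, with the limit that sex and run coincide at 18 months. No peak of the 68 passed the interaction of age and sex (3 had an unadjusted p below 0.05, and the smallest adjusted p was 0.373), where 0.00532% of all peaks did, and none of the 8 genes did (0 unadjusted, smallest adjusted p 0.531), where 0.00% of all genes did. For sex alone, no peak passed (6 unadjusted, smallest adjusted p 0.342), where 0.162% of all peaks did, and no gene did (0 unadjusted, smallest adjusted p 0.491), where 0.268% of all genes did. No other tool was run for these tests.

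Per kb of peak, the order of the 8 genes differed between the ages. These levels include peaks nearer to another gene: 4 of 6 for Epor, 5 of 10 for Stat5a, 2 of 8 for Cish and 1 of 18 for Stat5b. At 3 months the Epor peak inside Swsap1 held 71.8 CPM over 1770 bp, against 51.4 CPM over 3531 bp at the Epor start. The order was not computed without such peaks. In the young mice Epor was highest at 18.3 CPM per kb, then Pim1 at 17.5, Tfr2 at 15.7, Stat5a at 12.5, Stat5b at 12.4, Lyn at 12.03, Cish at 11.98 and Socs2 at 9.83. In the old mice it was Pim1 at 16.1, then Cish at 13.99, Epor at 13.6, Lyn at 13.2, Stat5b at 11.6, Stat5a at 10.8, Tfr2 at 10.3 and Socs2 at 9.71. Tfr2 thus stood above Cish in the young mice and below it in the old. Over all 12 libraries, the ranges of neighbours in the pooled order overlapped, from Pim1 at 16.8 CPM per kb to Socs2 at 9.77.

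**Figure D4:**
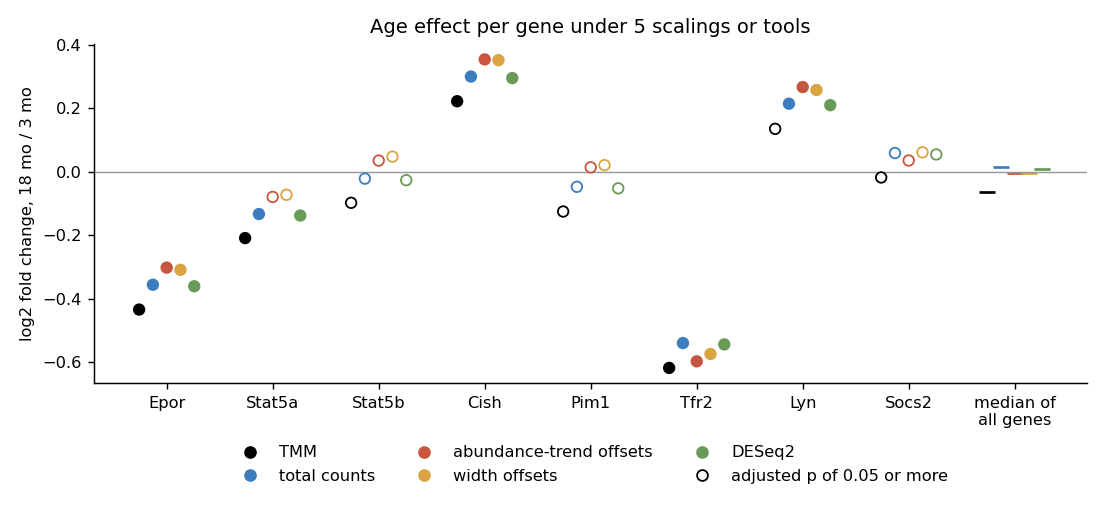
Log2 fold change between 18 and 3 months (y axis) for each gene under TMM, total counts, abundance offsets, width offsets and DESeq2; filled points passed the test, and short bars give the median of all genes. Epor, Tfr2 and Cish keep their direction and stay filled in all 5, Stat5a opens in 2, Lyn fills in 4, and Stat5b, Pim1 and Socs2 cross 0.

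The rest of the pathway, from lists of other genes, showed lower levels more than higher ones in the receptor complex and its direct signalling proteins: 11 of 23 genes with a peak were lower and 2 higher, with a median log2 fold change of -0.15 beside -0.06 over all genes. That is 47.8% lower and 8.70% higher, beside 25.0% and 10.6% of all genes. With total counts the numbers were 6 and 2, with abundance offsets 5 and 3 and with width offsets 6 and 3. The lower share was thus 26.1%, 21.7% and 26.1%, nearer to the 18.1%, 17.4% and 18.0% of all genes lower under the same scalings. Of the 11 lower genes, 5 passed in none of 4 other scalings or tools. The 3 lower genes with the smallest p were Usp7 (-0.47), a deubiquitinating enzyme, Foxo3 (-0.31), a transcription factor that the pathway restrains through AKT, and Pik3r1 (-0.28), a regulatory subunit of phosphoinositide 3-kinase. The 2 higher genes were Vav1 (0.22), a guanine nucleotide exchange factor, and the adaptor Gab2 (0.15). All 5 also passed in the same direction under 4 of 4 other scalings or tools.

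Among 23 other STAT5 target genes with a peak, 5 were lower and 3 higher, with a median of 0.01. That is 21.7% lower and 13.04% higher, beside 25.0% and 10.6% of all genes. The higher count depended on the scaling: 9 (39.1%) were higher under each of total counts, abundance offsets, width offsets and DESeq2, beside 18.5%, 17.7%, 17.8% and 18.5% of all genes. These were the same 9 genes in all 4, the 3 named as higher below and, named after their values were seen, Bcl6, Ccnd2, Dusp6, Mcl1, Socs1 and Socs3. The lower genes with the smallest p were Gfi1b, a repressor needed in red cell precursors, at 123 ± 5.77 against 190 ± 11.7 CPM, Tfrc, the transferrin receptor that brings in iron, at 146 ± 5.92 against 217 ± 11.5 CPM, and Bcl2l1, which encodes the survival protein BCL-XL, at 346 ± 10.2 against 482 ± 31.4 CPM (SD, n = 6 each; log2 fold changes -0.63, -0.57 and -0.47). The higher ones were Bcl2, a related survival gene, at 97.1 ± 9.12 against 66.2 ± 4.608 CPM, a log2 fold change of 0.55, Id1 (0.31) and the cytokine gene Osm (0.26). Bcl2 and Bcl2l1 thus moved in opposite directions, with no overlap between ages in either, and all 6 passed under 4 of 4 other scalings or tools.

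Other receptors that signal through JAK kinases and STAT5 gave 3 higher (20.0%) and none lower of 15 with a peak by edgeR, beside 10.6% and 25.0% of all genes; these were Csf2rb and Csf2rb2, the shared and the IL-3 specific beta chains, and Il3ra, the IL-3 receptor alpha chain (0.36, 0.39 and 0.37). Csf2rb2 did not pass with abundance offsets. Under those offsets 5 of the 15 receptors (33.3%) were higher, beside 17.7% of all genes. Under each of total counts, width offsets and DESeq2 4 (26.7%) were higher, beside 18.5%, 17.8% and 18.5% of all genes. None was lower under any of these. Of 12 other STAT, JAK and SOCS genes, Stat4 (0.54), Stat2 (0.35) and Stat6 (0.20) were higher and Socs7 (-0.31) and Socs4 (-0.29) lower (25.0% higher, 16.7% lower), though Stat2 did not pass with abundance or width offsets. Of 6 other SRC family kinases with a peak, Fgr, a kinase of myeloid cells, was higher (0.21) and Lck, a kinase of T cells, lower (-0.32), 16.7% each way. Epo, Foxp3, Lepr, Yes1 and Frk had no peak assigned. Erythroid marker sums were lower and neutrophil marker counts higher beside all of these, as given above, and their part was not tested.

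**Figure D5:**
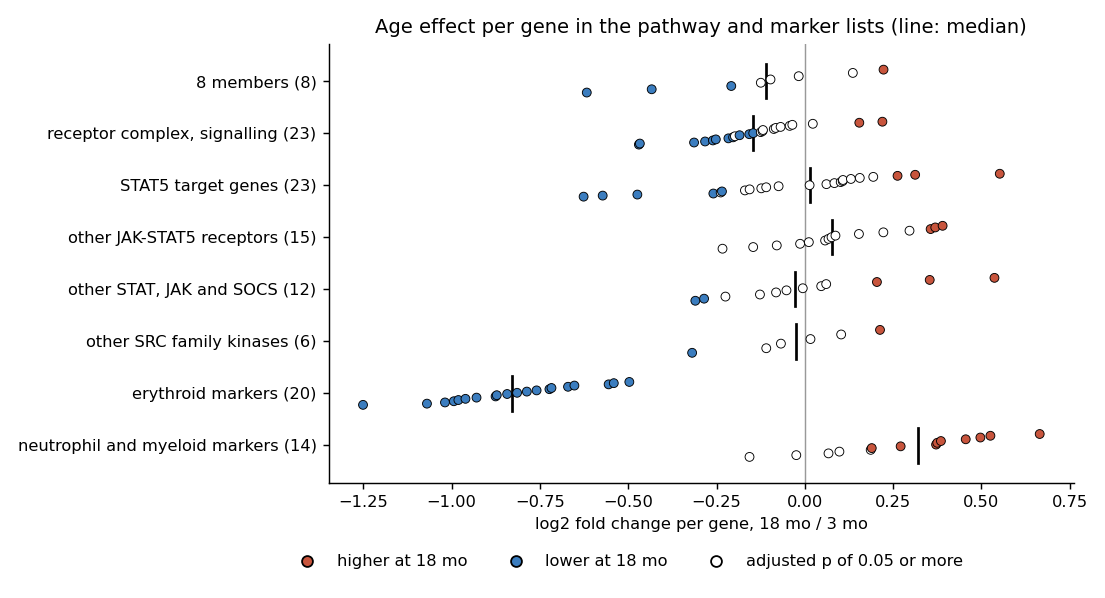
Log2 fold change per gene (x axis) for the 8 genes, the pathway lists and the erythroid and neutrophil marker lists, with the number of genes with a peak after each name; filled points passed the test and the vertical line is the list's median. The 20 erythroid markers all lie left of the 8 genes' median of -0.11, and the neutrophil list's median is at 0.32.

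For each gene, the 3 other genes whose log2 level was most alike over the 12 libraries were taken from 7651 genes of at least median level, by Pearson's r as a description. For Epor these were Cln8, Nap1l4 and Fbxo7 (r of 0.985, 0.985 and 0.985). For Tfr2 they were Ampd3, Piezo1 and Dhrs13 (0.953, 0.944 and 0.939), and for Stat5a Traip, Phactr4 and Slc2a4 (0.961, 0.957 and 0.957). All 12 points share the age groups, runs and depths. Cish was most like Ptprr, Nxn and Tlr2 (0.982, 0.946 and 0.937), and Lyn most like Pgam1, Gramd1a and Slc2a6 (0.963, 0.957 and 0.953). Pim1 was most like Snx13 (0.948), Stat5b most like Copb2 (0.876), and Socs2 reached 0.703 with Espl1, the lowest best value of the 8.

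The 10000 bp limit that chose the peaks left its own edge. The peak just inside it, at chr11:100770598-100771253, lay 9806 bp from Stat5b, with 11.3 CPM at 18 months and 10.2 CPM at 3 months. The peak just outside, at chr9:107312659-107313401, lay 10246 bp from Cish, with 11.7 CPM at 18 months and 7.75 CPM at 3 months. Their log2 fold changes were 0.15 (SE 0.14) and 0.58 (SE 0.14), the latter beside 0.31 in each called Cish peak, and the level summed for Cish does not include that peak.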

How the data were processed

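The authors deposited read counts for 75281 consensus peaks in 12 bone marrow libraries, and the values are whole numbers with no normalization. Per the labels' protocols, 50000 cells were tagged with 0.01% digitonin, and libraries had 10 PCR cycles and paired 75 bp reads. The submitters' processing notes name Trimmomatic, BWA, MACS2, DiffBind, edgeR and the build mm10, without versions; removal of duplicates and the shift to the cut site are not given in the sources used here. Peak positions were checked against gene starts: 12.1% of peak centres lay within 500 bp of one, against 2.21% to 2.33% after shifts of 20000 to 100000 bp.

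The 75164 peaks that reached a CPM above 1 in 2 or more libraries were tested with edgeR 4.0.16 (R 4.3.3, limma 3.58.1): TMM factors, glmQLFit and glmQLFTest, age with sex as covariate, Benjamini-Hochberg adjustment over all tested peaks, threshold 0.05. Counts were also summed per gene over all peaks assigned to it (15314 genes). A model of 4 groups gave the tests within each sex and the interaction. CPM used TMM-scaled totals. Scaling by total counts, by loess offsets on peak abundance or width, and DESeq2 1.42.0 were alternatives, with other filters, covariates, peak assignments and each library left out. On simulated counts for 18 against 3 months, 51% of peaks changed 1.5-fold and 96% of those changed 2-fold were recovered (75155 peaks), and 96% and 100% of genes (15313 genes). The simulation changed 100 peaks or genes at each fold, used 1 common spread, and gave 15 false calls at peaks and 7 at genes. In the real data 21.0% of peaks passed, so these rates may not carry over. Replicates shared a Spearman correlation of 0.900 to 0.950 over peaks, and no 2 libraries were identical. Labels give each library a mouse number of its own; whether tissue was otherwise handled separately is not stated, and p-values measure the spread between these libraries.

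The members, lists and tests were chosen with earlier results of these data known. The text names all 8 genes and, in each, the highest peak, the peaks at gene starts and the largest called increase and decrease; in each list, at most the 3 genes with the smallest p in each direction. Promoter and gene positions came from RefSeq tables of GRCm38.p6, which hold promoter windows for 6 of the 8 genes (not Lyn or Socs2).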

Additional observations from a re-analysis of the deposited data

Results flagged for a closer look

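Of 48 groups of 6 libraries examined for a library that stands apart (chance gives about 5% of such groups), 1 was marked: the level of Lyn at 3 months. The male of sequencing run 30 stood at 125 CPM, with the next library at 99.8 CPM and the lowest at 86.3 CPM, so the gap took 0.653 of the range against a critical value of 0.625. The same library had the highest summed level of neutrophil and myeloid markers at 3 months, 1421 CPM against 913 to 1042 CPM in the other 5, and it was the only library of that run. Without it the log2 fold change of Lyn was 0.21 in place of 0.14 and passed the edgeR test. The part of marker levels or run in this value was not tested.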

How the results depend on the processing

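Epor, Tfr2 and Cish kept their direction under every alternative run, and Epor and Tfr2 passed in each. The numbers of called peaks were less stable: 12 peaks were higher with total counts, 3 in females alone and 1 in males alone (5 with TMM and all libraries), and 4 were lower in males alone (9 with TMM and all libraries). Over the fits that left out 1 library, 4 to 8 peaks were higher, the most without the 3-month male of run 30, and 7 to 10 lower. Among all peaks, total counts gave 62.8% of called peaks as higher against 44.9% with TMM, and among all genes 50.6% against 29.7%; the median over all peaks was 0.10 with total counts. Of the 14 called peaks, 10 (6 lower, 4 higher) passed in all 4 other scalings or tools and 10 (7 lower, 3 higher) in every fit without 1 library. The number of genes higher was 2, with Lyn joining Cish, under total counts, abundance offsets, width offsets, DESeq2, females alone and without that male (range 1 to 2 without 1 library), and 0 when peaks were limited to 3000 bp or to those nearest the gene. Stat5a no longer passed with abundance offsets (-0.0788), width offsets (-0.0719) or males alone (-0.13). Cish no longer passed within 3000 bp (0.17) or with its nearest peaks only (0.11). Lyn passed with total counts (0.21), abundance offsets (0.27), width offsets (0.26), DESeq2 (0.21) and females alone (0.24), ranged from 0.0948 to 0.21 without 1 library, and was -0.18 by its highest peak. Stat5b was 0.0357 and 0.0483 with abundance and width offsets and passed at -0.54 by its highest peak. Pim1 was 0.0145 and 0.0214 with those offsets (its start peak 0.0838 and 0.0726), and ranged from -0.16, which passed without the 3-month male of run 31, to -0.0920 without 1 library. Socs2 was above 0 with total counts (0.0596), abundance offsets (0.0361), width offsets (0.0618), DESeq2 (0.0551), males alone (0.0282) and its highest peak (0.21), and ranged from -0.0587 to 0.0174 without 1 library. The second Stat5b start peak was 0.0696, 0.0848 and 0.11 with total counts, abundance and width offsets and 0.0027 in females alone, with -0.0584 to 0.0720 without 1 library; the Cish start peak ranged from -0.00047 to 0.11. For the lists, receptor complex genes numbered 1 higher within 3000 bp and 6, 5 and 6 lower with total counts, abundance and width offsets; STAT5 targets numbered 9, 9 and 9 higher (39.1%) under these, beside 18.5%, 17.7% and 17.8% of all genes, and 3 lower with width offsets; other receptors numbered 5 higher with abundance offsets; SRC family kinases numbered 3 higher with abundance and 3 with width offsets and 0 within 3000 bp. The cause of these moves was not tested, except that subsets of libraries or peaks hold fewer data. No paired analysis was possible because the groups share no replicate numbers. Small changes may be missed at this depth, spread and number of libraries. In simulated peaks 51% of 1.5-fold changes were recovered, with the limits of that simulation given above.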
